A study of Rattus norvegicus with 8 samples.

Results

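The 9 genes described here, Gfap, Vim, Aqp4, Gja1, Gjb6, Glul, Aldoc, Aldh1l1 and S100b, are widely used to recognise astrocytes or carry out their core functions. They were taken as every transcript row of the deposited hippocampal RNAseq table that carries 1 of these symbols, which gave 16 of 16266 transcripts for 9 of 13272 gene symbols. Gfap, Gja1, Glul, S100b and Vim each had 1 transcript row, whereas Gjb6 and Aldh1l1 had 2 rows each, Aldoc 3 and Aqp4 4. Each value is 1 FPKM per group, the fragments of a transcript scaled for its length and for the depth of sequencing, as the authors' processing gave it.

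Whole hippocampi came from 8 adrenalectomized (ADX) rats, so that both groups lacked adrenal corticosterone, and all had been given corticosterone in their drinking saline until a washout before the experiment. The vehicle group of 4 rats was infused for 30 min from ZT 2 with 0.45% saline, and the CORT group of 4 rats received corticosterone-2-hydroxypropyl-β-cyclodextrin at 0.75 mg/mL in the same way. The labels give Sprague-Dawley rats of 3 to 4 months and ZT 2, whereas the study's methods name male Lister hooded rats of a younger age and collection at ZT 4, that is 2 h after the start of infusion. The vehicle samples are titled untreated, although their treatment label is vehicle.

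The comparison asks how a short rise of corticosterone in the absence of the adrenal glands relates to transcript levels in the hippocampus. The table holds 1 value per group and none per rat, so the spread between rats and the depth of each library are unknown. No test over rats could be made from these values, and the results of the authors' own test in the table were not used. No replicate check was possible.

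Astrocytes are glial cells that tile the hippocampus and touch both synapses and blood vessels. Their cytoskeleton holds intermediate filaments of the GFAP and vimentin proteins, their endfeet on vessels carry the water channel aquaporin 4, and gap junctions of connexins join them to each other. They take up glutamate from synapses and turn it into glutamine, and they express the glucocorticoid receptor, a transcription factor that binds DNA when corticosterone is bound to it. Raised Gfap and Vim are classic signs of a reactive astrocyte.

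Sequences before the transcription start are shown for the filament genes Gfap and Vim, which had the lowest ratios of the 9 genes, and for the only member sequence with a match to the glucocorticoid half-site. RefSeq windows of the GRCr8 assembly were matched by symbol for all 9 genes, which gave 12 start sites, and the 250 bases before each start were searched on both strands. The motifs were the glucocorticoid receptor half-site AGAACA, the full site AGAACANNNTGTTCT, which contains the half-site on each strand, the STAT site TTCNNNGAA and the TATA box TATAAA. The Gfap window is chr10:88361662-88361911 on the minus strand, the Vim window chr17:81577011-81577260 on the plus strand, and the window of the second Gjb6 start chr15:35408963-35409212 on the minus strand. Each is written 5′ to 3′ along the gene, with the matched letters in capitals and the last base next to the start.
Gfap: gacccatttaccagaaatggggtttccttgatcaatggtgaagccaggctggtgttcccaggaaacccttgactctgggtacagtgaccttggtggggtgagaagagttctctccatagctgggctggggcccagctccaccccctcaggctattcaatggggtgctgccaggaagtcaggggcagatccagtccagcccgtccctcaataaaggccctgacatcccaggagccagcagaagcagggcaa
Vim: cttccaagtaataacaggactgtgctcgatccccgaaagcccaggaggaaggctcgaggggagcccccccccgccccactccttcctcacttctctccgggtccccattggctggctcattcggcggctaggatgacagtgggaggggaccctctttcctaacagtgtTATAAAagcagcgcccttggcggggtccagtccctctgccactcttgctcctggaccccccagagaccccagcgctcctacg
Gjb6, second start: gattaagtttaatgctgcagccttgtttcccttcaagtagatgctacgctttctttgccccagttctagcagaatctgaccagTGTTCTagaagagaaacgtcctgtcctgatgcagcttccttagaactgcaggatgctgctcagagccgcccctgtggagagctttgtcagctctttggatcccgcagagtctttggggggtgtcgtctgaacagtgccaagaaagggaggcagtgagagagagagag

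The Vim window held TATAAA from 82 to 77 bases before the start, and 12.9% of the 33469 RefSeq windows of this length hold that motif. The second Gjb6 window held TGTTCT, the half-site on the other strand, from 167 to 162 bases before the start, as 17.5% of all windows hold this half-site. None of the 12 member windows held the full site, found in 0.012% of all windows, or the STAT site, found in 7.67%. Gfap matched none of the 4 motifs, which says only that these letters are not in this window.

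Among the 9 genes, the filament genes Gfap and Vim had lower values in the CORT group, whereas Glul, S100b, Gja1 and the main Aldoc transcript differed little between the groups. By the transcript with the highest mean FPKM of each symbol, 3 of the 9 genes were at least 1.5-fold lower in CORT (Gfap, Vim and Aldh1l1) and 0 were at least 1.5-fold higher, and the Aldh1l1 call was lost with a pseudocount of 1 FPKM. Over all 12988 symbols with at least 1 FPKM in a group, 3.66% were lower and 1.86% higher by the same measure. The median log2 ratio of CORT over vehicle was -0.10 over the 9 genes and 0.02 over all those symbols. Since this is whole tissue, fewer cells of a type and less RNA per cell cannot be told apart.

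**Figure D1:**
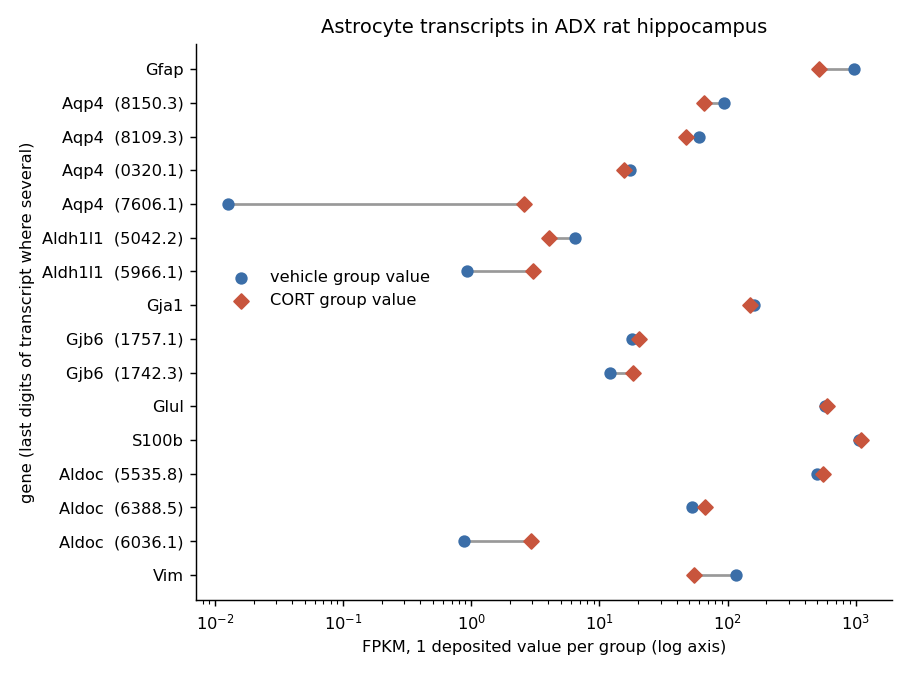
FPKM of the 16 transcripts of the 9 genes, with 1 deposited value for the vehicle group (circle) and 1 for the CORT group (diamond) on a log axis, and a line between them. Gfap lies at 970 and 517 and Vim at 117 and 54.4, whereas the symbols of S100b and Glul nearly overlap.

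Gfap encodes glial fibrillary acidic protein, the main filament protein of mature astrocytes. Its locus is given as chr10:90990761-90999435 in rn6. Gfap transcript was at 970 FPKM in vehicle and 517 FPKM in CORT, 1.88-fold lower in CORT, with a log2 ratio of -0.91. It stood at rank 45 of all transcripts by FPKM in vehicle and at rank 112 in CORT, and 2.06% of the 15808 transcripts with at least 1 FPKM in a group had a lower ratio.

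Vim, at chr17:80882665-80891212 in rn6, encodes vimentin, the filament protein of immature and reactive astrocytes that is also made by fibroblasts, endothelial cells and other cells of mesenchymal origin. Its level was 117 FPKM in vehicle and 54.4 FPKM in CORT, 2.15-fold lower, with a log2 ratio of -1.11. A lower ratio was found for 1.48% of transcripts.

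Ratios spread widely for rare transcripts and narrowly for abundant ones, so both filament genes were also set beside transcripts of a similar level. Of 2039 transcripts with a mean of at least 50 FPKM, a class chosen after the values were seen, 20 were at least 1.5-fold lower in CORT (0.981%) and 34 at least 1.5-fold higher (1.67%). The central 90% of log2 ratios in this class ran from -0.21 to 0.25. Other member transcripts of the class also lay outside that range. They were ENSRNOT00000068150.3 and ENSRNOT00000048109.3 of Aqp4, at -0.51 and -0.34, and ENSRNOT00000046388.5 of Aldoc, at 0.32. Gfap was the fifth most abundant of the 20 lower transcripts and Vim the fifteenth. The haemoglobin genes of red blood cells, Hba1, Hbb and Hba2, were among the others, named after their values were seen, with log2 ratios of -0.75, -0.80 and -0.97. Their part in the filament values was not tested.

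**Figure D2:**
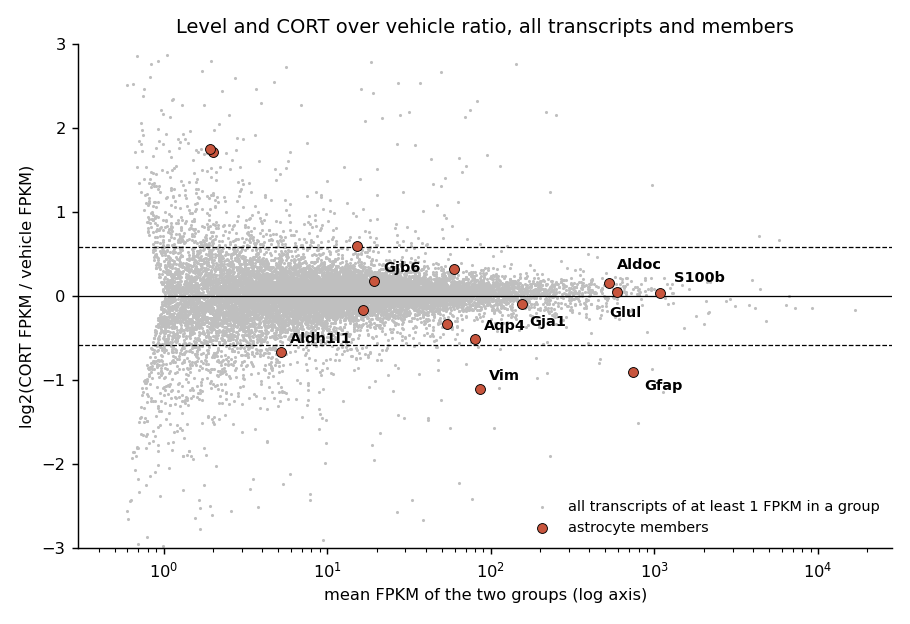
Mean FPKM of the groups (log axis) against the log2 ratio of CORT over vehicle for 15808 transcripts (grey) and the member transcripts (red), with dashed lines at a fold of 1.5. Each name stands beside that gene's most abundant transcript, and Gfap and Vim lie below the grey band at their level. 69 transcripts, 1 of them a low Aqp4 transcript, fall beyond the plotted log2 range of 3.

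The other listed filament gene with a row, Synm, which encodes synemin, had 12.2 FPKM in vehicle and 11.9 FPKM in CORT, a log2 ratio of -0.03. The lower filament values were thus those of Gfap and Vim, and Nes had no row.

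Aqp4, the water channel of astrocyte endfeet, is listed at chr18:6765944-6782996 in rn6 with 4 transcripts. The most abundant, ENSRNOT00000068150.3, was at 93.6 FPKM in vehicle and 65.5 FPKM in CORT, a log2 ratio of -0.51. ENSRNOT00000048109.3 was at 60.1 and 47.6 FPKM, a log2 ratio of -0.34. ENSRNOT00000090320.1 was at 17.5 and 15.6 FPKM, a log2 ratio of -0.16. All 3 were lower in CORT and all lay within 1.5-fold, the first of them just short of it at 1.43-fold. The remaining transcript, ENSRNOT00000077606.1, is listed at 0.0126 FPKM in vehicle and 2.55 FPKM in CORT. It met the filter of 1 FPKM only through the CORT group, so its ratio is given no weight. Summed over its transcripts, Aqp4 was at 171 FPKM in vehicle and 131 FPKM in CORT, a log2 ratio of -0.38, with 6.49% of symbols having a lower summed ratio.

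Gja1 encodes connexin 43, the more abundant gap junction protein of astrocytes, and is listed at chr20:37876649-37889089. Its level was 161 FPKM in vehicle and 150 FPKM in CORT, a log2 ratio of -0.10. Gjb6 encodes connexin 30, the other astrocyte connexin, and is listed with 2 transcripts at chr15:37400888-37410848. ENSRNOT00000081757.1 was at 18.1 FPKM in vehicle and 20.5 FPKM in CORT, a log2 ratio of 0.18. ENSRNOT00000011742.3 was at 12.04 and 18.2 FPKM, 1.51-fold higher in CORT and so just past the threshold, with a log2 ratio of 0.59. It fell short of the threshold with a pseudocount of 1 FPKM, at 0.56, and after centring on the median of all transcripts, at 0.57. Summed, Gjb6 was at 30.1 and 38.7 FPKM, a log2 ratio of 0.36, which made it the highest of the 9 summed ratios. The connexin genes of astrocytes lay on opposite sides of 0, with Gja1 close to it, and whether their ratios differ beyond the spread between rats could not be tested.

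The other 10 listed genes of junctions and endfeet, among them potassium channels and dystrophin-complex proteins, all lay within 1.5-fold, with a median log2 ratio of -0.02. Hepacam, a cell adhesion protein that binds the membrane protein Mlc1, had the largest ratio of these 10, at 21.5 FPKM in vehicle and 23.5 FPKM in CORT and a log2 ratio of 0.13. The ratios of the main Aqp4 and Gjb6 transcripts, -0.51 and 0.18, were thus both outside the range of these 10 genes, which ran from -0.13 to 0.13.

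Glul encodes glutamine synthetase, which converts glutamate to glutamine and is also present in oligodendrocytes. It is listed at chr13:71331051-71340229 with 577 FPKM in vehicle and 598 FPKM in CORT, a log2 ratio of 0.05. RefSeq lists Glul pseudogenes in the rat, and since reads of near-identical copies can be split between them, this level is uncertain. Such sharing was not measured here. The 6 other listed genes of glutamate uptake and the glutamine cycle all lay within 1.5-fold, with a median log2 ratio of -0.04. Slc1a2, the main glutamate transporter of astrocytes, was at 159 and 175 FPKM, a log2 ratio of 0.14. Slc7a11, the cystine-glutamate exchanger, was at 16.3 and 13.8 FPKM, a log2 ratio of -0.24.

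Aldoc encodes the brain form of the glycolytic enzyme aldolase and is listed at chr10:65586503-65590126. Its main transcript, ENSRNOT00000015535.8, was at 501 FPKM in vehicle and 557 FPKM in CORT, a log2 ratio of 0.15. ENSRNOT00000046388.5 was at 52.8 and 66.1 FPKM, a log2 ratio of 0.32. Both were higher in CORT and within 1.5-fold. The third, ENSRNOT00000086036.1, was at 0.876 and 2.94 FPKM and met the filter only through the CORT group. Summed, Aldoc was at 554 and 626 FPKM, a log2 ratio of 0.18.

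Aldh1l1 encodes a folate enzyme, 10-formyltetrahydrofolate dehydrogenase, and is a widely used marker of all astrocytes. It is listed at chr4:123516787-123557501 and was the least abundant of the 9 genes. ENSRNOT00000075042.2 was at 6.39 FPKM in vehicle and 4.02 FPKM in CORT, 1.59-fold lower, with a log2 ratio of -0.67. ENSRNOT00000085966.1 was at 0.931 and 3.05 FPKM, higher in CORT, but below 1 FPKM in vehicle. The sum of both was 7.32 FPKM in vehicle and 7.07 FPKM in CORT, a log2 ratio of -0.05, but this sum rests on the second transcript, which met the filter only through the CORT group. The main transcript was no longer past 1.5-fold once 1 FPKM was added to both values, with a log2 ratio of -0.56. The main transcript held 87.3% of the sum in vehicle and 56.9% in CORT. How far the division of reads between these transcripts varies from rat to rat is unknown.

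**Figure D3:**
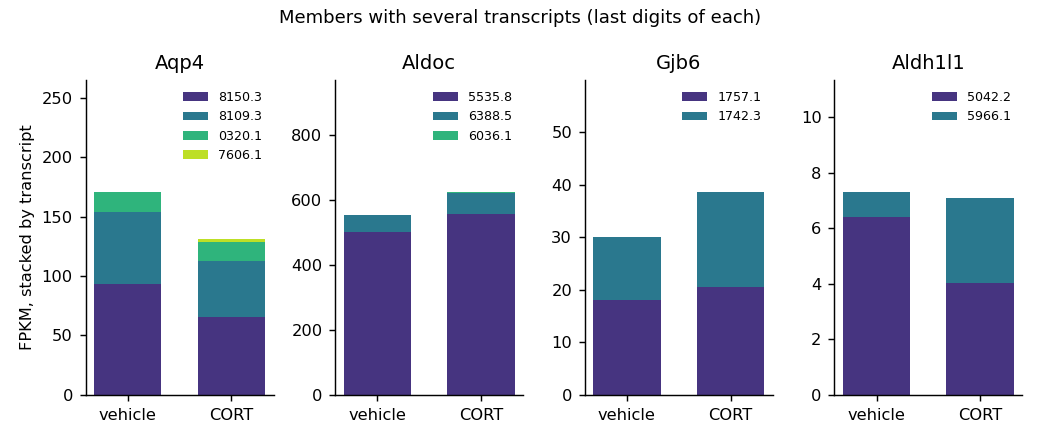
FPKM of each transcript of the 4 genes with several rows, stacked for the vehicle and the CORT group on linear axes from 0. The Aqp4 stack is lower in CORT (171 and 131 FPKM), the Aldoc and Gjb6 stacks are higher, and the Aldh1l1 stacks are of nearly equal height (7.32 and 7.07 FPKM) but divided differently.

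The 8 other listed genes of astrocyte metabolism lay within 1.5-fold, with a median log2 ratio of -0.02. Ldhb, a lactate dehydrogenase subunit, was at 393 and 414 FPKM in vehicle and CORT. Slc16a1, a lactate and pyruvate transporter that is also abundant in endothelium, was at 24.9 and 19.7 FPKM, a log2 ratio of -0.34.

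S100b encodes a calcium-binding protein of astrocytes that is also found in some oligodendrocytes and ependymal cells, and is listed at chr20:13130635-13142856. It was the most abundant member in both groups, at 1066 FPKM in vehicle and 1095 FPKM in CORT, with a log2 ratio of 0.04 and rank 40 of all transcripts in each group. Of the 11 other listed genes of calcium binding and secretion, 9 passed the filter and 1 of them, Mertk, was past 1.5-fold. Mertk, a receptor for engulfing cell debris that microglia also carry, was at 6.64 FPKM in vehicle and 11.7 FPKM in CORT, a log2 ratio of 0.81. Apoe, the lipid carrier apolipoprotein E, was the most abundant, at 2913 and 2847 FPKM. The median of the 9 log2 ratios was -0.15, and 8 lay below 0, beside 45.4% of all symbols.

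By summed FPKM the order of the 9 genes in vehicle was S100b, Gfap, Glul, Aldoc, Aqp4, Gja1, Vim, Gjb6 and Aldh1l1. In CORT it was S100b, Aldoc, Glul, Gfap, Gja1, Aqp4, Vim, Gjb6 and Aldh1l1. Gfap moved from the second place to the fourth, and Aqp4 and Gja1 changed places, although without a spread it cannot be said which neighbours differ. By these sums 2 of the 9 genes, Gfap and Vim, were at least 1.5-fold lower and 0 were at least 1.5-fold higher, beside 3.43% and 1.71% of 12992 symbols. The summed FPKM of all member transcripts was 3654 in vehicle and 3218 in CORT. Without Gfap it was 2684 and 2701 and so nearly equal.

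Counted by transcript, 3 of the 16 were at least 1.5-fold lower (Gfap, Vim and ENSRNOT00000075042.2 of Aldh1l1) and 4 at least 1.5-fold higher, beside 4.45% and 4.00% of all transcripts that passed the filter. Of the 4 higher, 3 are the Aqp4, Aldh1l1 and Aldoc transcripts under 1 FPKM in vehicle, which could only pass by being higher in CORT, and the remaining 1 is the second Gjb6 transcript. The median log2 ratio was 0.05 over the 16 transcripts, and 0.02 over all transcripts.

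Transcription factors that specify or maintain astrocytes and neural stem cells were measured beside the members. All 11 listed factors passed the filter, 4 were at least 1.5-fold lower and 1 at least 1.5-fold higher in CORT, and the median log2 ratio was -0.22. Over all symbols, 3.66% were lower and 1.86% higher by that fold. Sox9, a glial fate factor, was at 6.86 FPKM in vehicle and 3.70 FPKM in CORT, a log2 ratio of -0.89. Sox2, a stem cell factor retained by astrocytes, was at 26.8 and 15.8 FPKM, a log2 ratio of -0.76. Hes5, a target of Notch signalling, was at 19.7 and 12.8 FPKM, a log2 ratio of -0.62. Id3 was at 56.9 and 37.4 FPKM, a log2 ratio of -0.61, and its relative Id2, an inhibitor of basic helix-loop-helix factors like Id3 and the most abundant on this list, was at 90.9 and 78.1 FPKM, a log2 ratio of -0.22. The single factor past the fold in the other direction, Gli3, is an effector of hedgehog signalling and was at 0.662 and 1.13 FPKM. Gli3 met the filter of 1 FPKM only through the CORT group, so its ratio could only lie above 0. It was named after its value was seen.

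None of the 9 listed astrocyte receptors was past 1.5-fold, and their median log2 ratio was -0.13. Gpr37l1, an orphan receptor of glia, was at 108 FPKM in vehicle and 95.8 FPKM in CORT, and Notch1 had the largest ratio at 5.94 and 4.51 FPKM, a log2 ratio of -0.40.

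The genes raised in reactive astrocytes, apart from Gfap and Vim, had the lowest median of the astrocyte lists, with a log2 ratio of -1.18 over 8 genes with a row of 11 listed. Of the 8, 5 were at least 1.5-fold lower in CORT and 0 at least 1.5-fold higher, beside 3.66% and 1.86% of all symbols. Hspb1, a small heat shock protein, was at 31.8 FPKM in vehicle and 10.3 FPKM in CORT, a log2 ratio of -1.63. Timp1, an inhibitor of metalloproteinases, was at 13.3 and 4.45 FPKM, a log2 ratio of -1.58. S1pr3, a receptor for sphingosine 1-phosphate, was at 5.11 and 2.23 FPKM, a log2 ratio of -1.19. These 3 genes are expressed by vascular cells as well as by astrocytes. Aspg, an asparaginase, was at 1.79 and 0.794 FPKM, and Cxcl10, an interferon-induced chemokine, at 1.07 and 0.284 FPKM. Both count among the 5 and met the filter of 1 FPKM only through the vehicle group. Their ratios could thus only lie below 0. Lcn2, which encodes lipocalin 2 and is a further classic reactive gene, was at 3.46 and 4.99 FPKM, higher in CORT and within 1.5-fold, and is named after its value was seen. Over the 8 astrocyte lists without the members, 62 genes passed the filter, of which 9 were at least 1.5-fold lower and 2 at least 1.5-fold higher, with a median log2 ratio of -0.09. Leaving out the reactive genes, 4 of 54 were lower and 2 higher, with a median of -0.07. The same shares of all symbols, 3.66% lower and 1.86% higher, stand beside both counts.

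**Figure D4:**
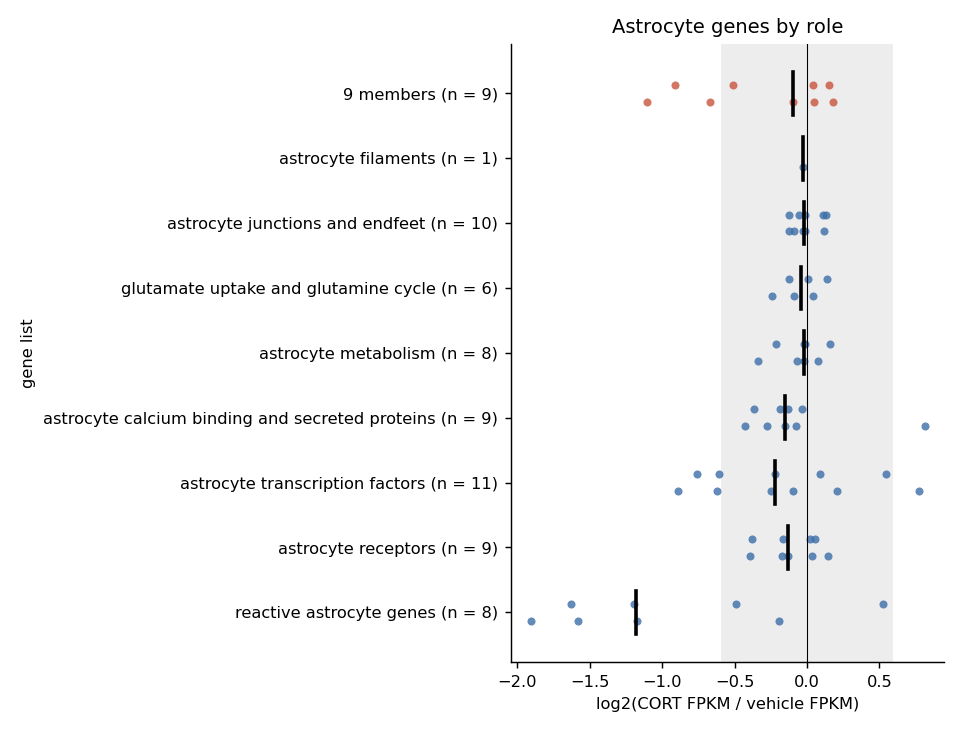
Log2 ratio of CORT over vehicle for the 9 genes (red, each by its most abundant transcript) and for the other astrocyte genes by role (blue), with the median of each list as a bar and the range within 1.5-fold shaded. The members spread from -1.11 for Vim to 0.18 for Gjb6, and the median of the reactive genes lies at -1.18, outside the shading.

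The 12 listed genes that glucocorticoids are known to induce were all at least 1.5-fold higher in CORT, beside 1.86% of all symbols. Their median log2 ratio was 0.93. The study itself names several of them as responsive to corticosterone, and the list was written with results known, so their direction is not independent evidence. Pdk4, a kinase that inhibits pyruvate dehydrogenase, had the largest ratio at 1.39 FPKM in vehicle and 8.11 FPKM in CORT.

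Of the other cell types, the meningeal and fibroblast list had most of its markers at least 1.5-fold lower in CORT, and the mural, endothelial and ependymal lists had fewer or none past that fold but most of their ratios below 0. Over all 12988 symbols with at least 1 FPKM in a group, 45.4% had a ratio below 0. By the same fold, 3.66% of them were lower and 1.86% higher, and these shares stand beside every cell type list below. Of 11 meningeal and fibroblast markers with a row, 8 were at least 1.5-fold lower in CORT, 10 had a log2 ratio below 0 and the median was -1.15. Their summed level was 154 FPKM in vehicle and 105 FPKM in CORT. Among the 8, Foxc1, at 1.73 and 0.754 FPKM, met the filter of 1 FPKM only through the vehicle group. Its ratio could thus only lie below 0. Col3a1, a fibrillar collagen, was at 10.7 and 4.35 FPKM, and Igf2, a growth factor and the most abundant of the list, at 59.0 and 46.3 FPKM. All 8 mural cell markers were below 0, 3 were at least 1.5-fold lower, the median was -0.32, and their sum was 166 FPKM in vehicle and 72.0 FPKM in CORT. The largest part of the vehicle sum was Tagln, a smooth muscle actin-binding protein, at 105 and 22.5 FPKM. Of 9 endothelial markers 1 was at least 1.5-fold lower and 8 were below 0, with a median of -0.16 and sums of 106 and 90.4 FPKM. Vim is made in all of these cells, and none of their markers with a row was listed at 0. Their part in the Vim value was not tested.

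Cells that can make Gfap or Vim within and around the hippocampus also include ependymal and progenitor cells. All 6 ependymal markers with a row had a log2 ratio below 0, 0 of them past 1.5-fold, with a median of -0.29 and sums of 82.4 FPKM in vehicle and 66.3 FPKM in CORT. Of 7 progenitor and dividing-cell markers, 3 were at least 1.5-fold lower, 5 were below 0, the median was -0.57, and the sums were 17.5 and 12.7 FPKM. The 3 were Cdk1, Top2a and Mki67, genes of dividing cells, each under 3 FPKM in vehicle and under 1 FPKM in CORT. All 3 met the filter of 1 FPKM only through the vehicle group, so their ratios could only lie below 0. Gfap was at 970 and 517 FPKM, and marker levels do not measure how much Gfap or Vim RNA the marked cells hold. None of these markers was listed at 0, and their part in the Gfap and Vim values was not tested.

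Oligodendrocyte markers, which bear on Glul and S100b, had a median of -0.25, with 9 of 10 below 0 and 1, Opalin, at least 1.5-fold lower, and their sums were 5500 FPKM in vehicle and 4581 FPKM in CORT. Microglia markers had a median of -0.23 with 9 of 10 below 0. The 1 above 0, Tmem119, was past 1.5-fold at 5.72 and 11.2 FPKM, and the sums were 344 and 296 FPKM. Choroid plexus markers had a median of -0.10, and their sums, most of them the transthyretin gene Ttr, were 6986 and 6946 FPKM, nearly equal between the groups. Neuronal markers had a median of 0.14, with 0 of 10 past 1.5-fold and sums of 3191 and 3355 FPKM, and Prox1, a marker of dentate gyrus granule neurons, was at 10.9 and 8.96 FPKM.

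**Figure D5:**
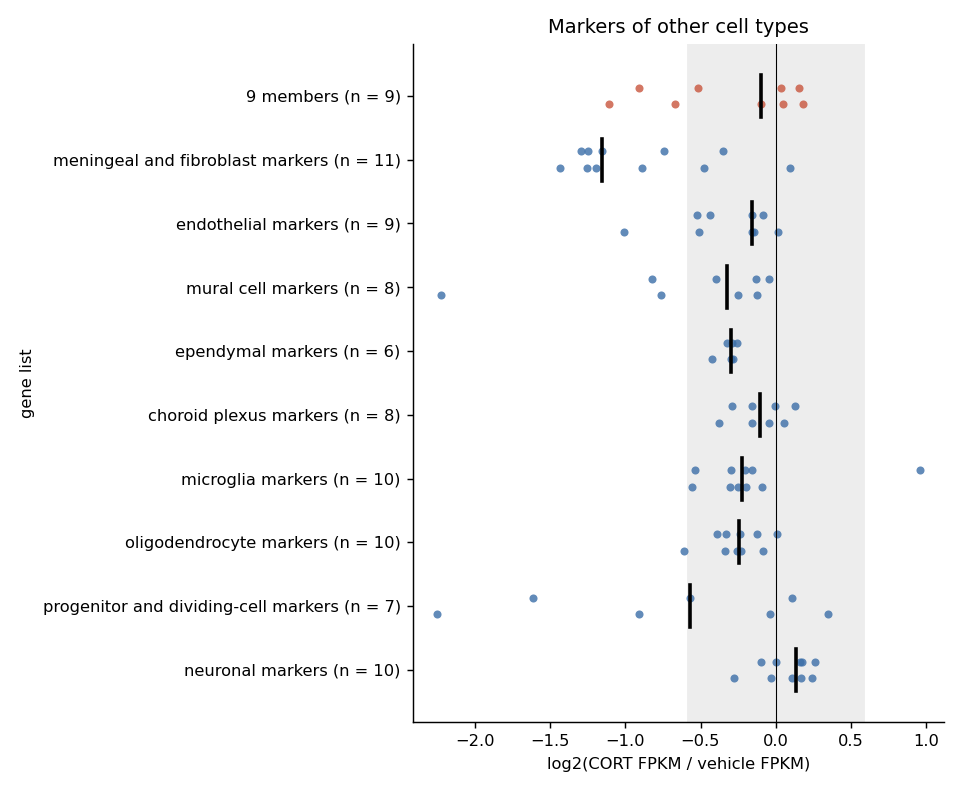
Log2 ratio of CORT over vehicle for the 9 genes (red) and for markers of 9 other cell types (blue), each gene by its most abundant transcript, with the median of each list as a bar and the range within 1.5-fold shaded. The median of the meningeal and fibroblast markers lies at -1.15, with single markers from -1.44 to 0.09, and that of the neuronal markers at 0.14.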

How the data were processed

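The authors made stranded libraries from whole hippocampi of 8 rats. Per the submitters' processing notes, reads were handled with CASAVA 1.8.2, TopHat2 2.0.10 and Cuffdiff 2.2.0 on the rn6 build. The deposited table gives 1 FPKM per group and Ensembl transcript, normalized by the authors between libraries, with reads that map to several places weighted. Whether strand was used in counting is not given in the sources used here. The table's own fold changes, test statistics, p- and q-values were not used. With 1 value per group no test was run, and depth per library is unknown.

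Here, the log2 ratio of CORT over vehicle was computed without a pseudocount. Transcripts needed 1 FPKM in at least one group (458 failed, none of them a member), and a fold of 1.5 was the threshold. In lists, each symbol was read from its most abundant transcript (by the mean of both groups). From each list the text names the gene with the largest ratio, the most abundant gene and those past the fold, or the 4 most abundant of them where there were more. Lcn2, Gli3 and the haemoglobin genes were named outside that rule, after their values were seen, and some genes that the rule names are not reported here. The members and lists were chosen with earlier results of these data known. Alternatives were folds of 1.2 and 2, pseudocounts of 1 and 0.1 FPKM, other filters, summing per symbol and centring. Locus spans are those of the table in rn6, without exon or UTR annotation. Scripts were tested on simulated data. Python 3.11.15, numpy 2.4.6, pandas 2.3.3 and matplotlib 3.10.9 were used.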

Additional observations from a re-analysis of the deposited data

How the results depend on the processing

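Gfap and Vim were at least 1.5-fold lower in CORT under both pseudocounts, every filter, centring and summing, whereas the counts of members past the fold moved with the setting. From 7 member transcripts past the fold (4 higher, 3 lower), a fold of 1.2 gave 5 higher and 5 lower, beside 12% and 12.7% of all transcripts, and a fold of 2 gave 4 in all with 3 higher and 1 lower, beside 1.78% and 1.77%. A pseudocount of 1 FPKM gave 5, with 3 higher and 2 lower, beside 2.24% and 2.31% of all transcripts. The main Aldh1l1 transcript and ENSRNOT00000011742.3 of Gjb6 no longer passed. Requiring 1 FPKM in both groups left 4, because the 3 transcripts under 1 FPKM in vehicle drop out. Of these 4, 1 was higher and 3 lower, beside 2.51% and 2.87% of all transcripts under that filter. Summing per symbol left 2, with 0 higher and 2 lower, beside 1.71% and 3.43% of all symbols. A mean of at least 50 FPKM, which was chosen after the data were seen, also left 0 higher and 2 lower. In that class 1.67% were higher and 0.981% lower. The median log2 ratio of the members, 0.05, became -0.10 under each of these last 2 filters on level. Of the other astrocyte genes, 2 were higher and 9 lower, beside 1.86% and 3.66% of all symbols. A fold of 1.2 gave 4 and 16, a fold of 2 gave 0 and 5, and a pseudocount of 1 FPKM gave 1 and 8. Shares of all symbols were not computed for these settings. Summing reversed ENSRNOT00000077606.1 of Aqp4 to -0.38 and ENSRNOT00000085966.1 of Aldh1l1 to -0.050. For Aldh1l1 this sum offsets a main transcript at -0.67. Centring shifted all ratios by 0.02, which left 6 past the fold, as the Gjb6 transcript no longer passed. Of these 6, 3 were higher and 3 lower, beside 3.74% and 4.77% of all transcripts. Leaving out single rats was not possible with 1 value per group. No paired analysis was possible because each group has a single column, without numbers for the rats.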

Other observations

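Relatives of the members, listed after the values were seen, were described in the same way, each gene by its most abundant transcript. Of 17 other intermediate filament genes, 0 were at least 1.5-fold lower in CORT and 1 was higher, beside 3.66% and 1.86% of all symbols. The 1 was the low keratin gene Krt71, at 0.846 FPKM in vehicle and 1.38 FPKM in CORT. It met the filter of 1 FPKM only through the CORT group, so its ratio could only lie above 0. The median log2 ratio of the 17 genes was 0.06. Nefl, the light neurofilament subunit of neurons, was the most abundant at 299 and 329 FPKM, a log2 ratio of 0.14, beside -0.91 for Gfap and -1.11 for Vim.

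Of 10 other S100 genes, 4 were at least 1.5-fold lower and 1 higher, with a median log2 ratio of -0.34, beside 0.04 for S100b. By that fold, 3.66% of all symbols were lower and 1.86% higher. S100a4, a calcium-binding protein of fibroblasts and white matter astrocytes, was at 60.6 FPKM in vehicle and 22.2 FPKM in CORT, a log2 ratio of -1.45. S100a6 was at 34.7 and 19.1 FPKM, S100a11 at 22.4 and 14.0 FPKM, and S100a3 at 10.9 and 6.06 FPKM. S100a13, the most abundant of the 10, was at 164 and 158 FPKM.

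Of 8 other connexin genes, Gjb2, which encodes connexin 26 of the meninges and some astrocytes, was at 8.05 FPKM in vehicle and 3.45 FPKM in CORT, a log2 ratio of -1.22, whereas the main Gjb6 transcript had a log2 ratio of 0.18. Of 3 other aquaporin genes none was past 1.5-fold, and Aqp1 of the choroid plexus was at 22.2 and 17.1 FPKM, a log2 ratio of -0.38, beside -0.51 for the main Aqp4 transcript. Aldoa, the general aldolase, was at 625 and 727 FPKM, a log2 ratio of 0.22 beside 0.15 for the main Aldoc transcript, whereas by summed transcripts Aldoa was at 0.15 and Aldoc at 0.18. Aldh1a2, a retinoic acid enzyme of the meninges and a relative of Aldh1l1, was at 10.2 and 3.78 FPKM, a log2 ratio of -1.44.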
